A study of Sus scrofa with 20 samples.

Results

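FREM1, FREM2, FRAS1, COL17A1, LAMA3, LAMB3, ITGA6, ITGB4 and DST encode proteins of the Fraser complex and of the hemidesmosome, assemblies by which an epithelium holds on to the basement membrane beneath it. They were taken by symbol from a table of 30345 named pig genes, and all 9 were found once and passed the filter on low counts, which left 17745 genes to test. The set was chosen by counts from these libraries, with the differences between inseminated and control sows already known. Its values in that contrast are therefore a description, without a test. The lists of other genes were also drawn up with earlier results known, so their p-values in that contrast are descriptive too. The set was not chosen on the contrasts between semen groups or on the variation among inseminated libraries, although earlier results of these data were known.

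The tissue was whole uterus from 20 sows, crosses of Large White and Landrace with a wild-type genotype, slaughtered 6 days after estrus began. Sows of the FR1 group had been inseminated with the sperm-rich fraction of the ejaculate, those of FR2 with the rich and intermediate fractions, and those of FR3 with the rich, intermediate and poor fractions, from 3 Pietrain boars, repeatedly and by the post-cervical route. CONTROL sows received no semen. Each group had 5 sows and 1 messenger RNA library per sow, named here by group and column number (FR1_1 to CONTROL_5). The control animals went without the insemination procedure, seminal plasma and sperm alike, and the labels do not say which sows carried embryos, so these differences cannot be told apart.

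The Fraser complex is made by FRAS1, FREM1 and FREM2, very large proteins that gather at the underside of the basement membrane and tie it to the connective tissue; in mouse, loss of any of them gives embryonic blistering. The hemidesmosome works from the cell side. Integrin alpha 6 beta 4 (ITGA6, ITGB4) and the transmembrane collagen XVII (COL17A1) bind laminin-332 (which holds the LAMA3 and LAMB3 chains) outside and plakin linkers such as dystonin (DST) inside. In the uterus, attachment of the luminal and glandular epithelium to its basement membrane is part of what is remodelled around implantation, and the pig blastocyst attaches without invading.

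Levels are given as counts per 1000000 (CPM) scaled by TMM factors, and compared between libraries within a gene, never between genes, because gene lengths were not used. Libraries held between 33.0 and 62.9 M counts (M, 1000000) in inseminated sows and between 39.9 and 50.9 M in CONTROL sows, and no pair of libraries agreed within sampling noise. The mean log2 CPM of 12 epithelium markers ran between 5.83 and 7.60 in inseminated libraries and between 7.62 and 8.13 in CONTROL libraries. By edgeR, 6 of the 12 were lower in inseminated uteri and none higher, beside 8.20% and 2.87% of all genes tested. These 6 were EPCAM, KRT18, CLDN4, CLDN7, ELF3 and MUC1. Summed CPM of the same markers overlapped, at 1590 to 6440 in inseminated and 4470 to 7750 in CONTROL libraries. The mean of 8 fibroblast markers ran between 7.50 and 9.03 in inseminated and between 6.41 and 8.24 in CONTROL libraries, 2 of the 8 rose (PDGFRA and LUM) and none fell, and no smooth muscle marker of 7 passed the test. Basal epithelium, the cell type best known for hemidesmosomes, was near the floor: TP63 and KRT5 did not pass the filter, KRT14 had no row, and the list summed to between 0 and 2.24 CPM in inseminated and between 0.102 and 1.78 CPM in CONTROL libraries.

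Of the 9 genes, FREM1 was higher and COL17A1 and LAMB3 were lower in inseminated uteri, and the other 6 had fitted differences within 1 standard error of 0 or little more. FREM1 was the gene with no overlap at all between inseminated and control libraries. COL17A1 and LAMB3 were low in every inseminated library and uneven among controls. With edgeR's quasi-likelihood test at an adjusted p below 0.05, 3 of 9 members were called against CONTROL, beside 11.1% of all genes tested (2.87% higher and 8.20% lower), a share from which nothing is read because this contrast chose the genes.

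**Figure D1:**
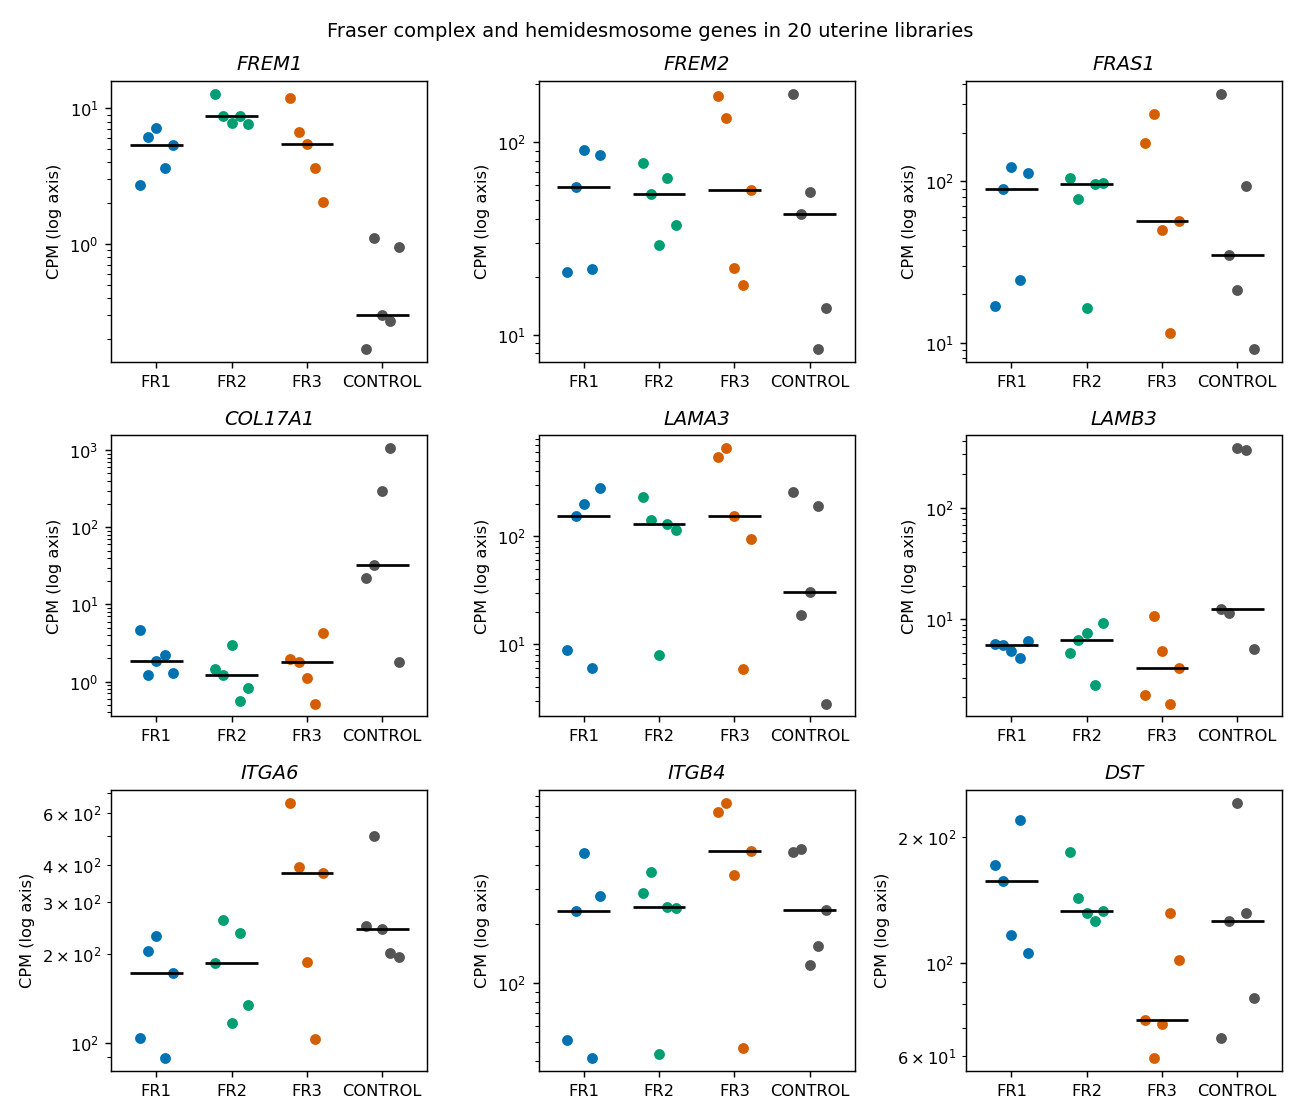
CPM of the 9 genes in each library (points, log axis) by group, with the group median as a line, n = 5 per group. FREM1 has all 15 inseminated libraries above all 5 CONTROL libraries, COL17A1 and LAMB3 have 4 of 5 CONTROL libraries above every inseminated one, and the other 6 genes overlap.

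Within the Fraser complex, FREM1, a secreted member of the FRAS/FREM family, stood at 2.73, 6.17, 7.12, 3.64 and 5.41 CPM in FR1 libraries, at 12.8, 8.83, 7.77, 8.82 and 7.71 CPM in FR2 libraries, at 12.0, 6.68, 5.46, 3.65 and 2.03 CPM in FR3 libraries, and at 0.168, 1.10, 0.298, 0.273 and 0.949 CPM in CONTROL libraries. The lowest inseminated library, FR3_5 with 67 counts, lay above the highest control, CONTROL_2 with 43 counts, so the groups did not overlap. Such a gap, with every inseminated library above every control, was met by 47 genes or 0.265% of those tested. The fitted log2 fold change was 3.54 ± 0.50 (SE), an 11.7-fold higher level in inseminated uteri, and it was 3.54 ± 0.71 without the 3 control libraries highest in COL17A1. Fewer cells that make a transcript and less transcript per cell cannot be told apart in whole tissue, here and throughout.

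FREM2, a membrane-anchored partner of FREM1, did not follow it. FREM2 measured 21.2, 58.7, 90.8, 21.9 and 85.7 CPM in FR1, 78.1, 53.5, 29.1, 64.8 and 37.0 CPM in FR2, 173, 134, 22.1, 18.0 and 56.2 CPM in FR3, and 178, 42.2, 55.3, 8.39 and 13.7 CPM in CONTROL. The groups overlapped over nearly their whole range, with CONTROL_1 above and CONTROL_4 and CONTROL_5 below every inseminated library. The fitted log2 difference was 0.05 ± 0.59, and 1.05 without CONTROL_1. The annotated FREM2 gene overlaps UFM1, whose mean count of 2780.9 per library is as large as the 2778.8 of FREM2, and the strand setting of the counting was not given in the sources used here, so reads from their shared stretch may not be told apart.

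FRAS1, the founding member of the complex and also anchored in the membrane, measured 16.9, 90.3, 122, 24.6 and 112 CPM in FR1, 105, 77.9, 16.5, 96.1 and 97.2 CPM in FR2, 172, 262, 49.8, 11.5 and 56.8 CPM in FR3, and 349, 35.1, 21.1, 94.0 and 9.12 CPM in CONTROL. Controls spanned a 38.3-fold range that enclosed all inseminated libraries. The fitted log2 difference was -0.24 ± 0.70, and 1.11 without CONTROL_1, the control highest in FRAS1 and FREM2 alike.

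The level of FREM1 relative to FREM2 was higher in most inseminated libraries. FREM1 CPM over FREM2 CPM, read only between libraries, had a median of 0.137 (0.0378 to 0.270) in inseminated libraries and 0.0283 (0.0015 to 0.0760) in CONTROL libraries. The ranges overlapped, since FR1_5, FR3_1, FR3_2 and FR3_5 lay below CONTROL_5.

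The 4 measured partners of the complex were GRIP1, which carries FRAS1 and FREM proteins to the cell surface, the matrix ligand nephronectin (NPNT), its receptor chain ITGA8, and the FRAS1-binding matrix protein VWA2 (roles known from mouse). NPNT alone of the 4 was called, as higher, where 2.87% of all genes tested were called higher and 8.20% lower. It stood at 272 ± 84.8 CPM in inseminated libraries (SD, n = 15) and 113 ± 53.9 CPM in CONTROL libraries (SD, n = 5). The log2 fold change was 1.26 ± 0.32 (adjusted p = 0.017, edgeR). With the mean of the epithelium markers in the model, the NPNT difference was 0.48 and not called. That mean does not overlap between inseminated and CONTROL libraries, so this fit cannot separate epithelium content from insemination. ITGA8 stood at 0.89 ± 0.39 (adjusted p = 0.149, edgeR), VWA2 at -0.74 ± 0.48 and GRIP1 at 0.04 ± 0.31, none of them called. FREM3, a further family member, had at most 0.681 CPM in inseminated and 0.105 CPM in CONTROL libraries and did not pass the filter.

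Collagen XVII, which spans the membrane of the hemidesmosome and reaches into the basement membrane, gave the lowest ratio of the set. COL17A1 measured 4.63, 1.23, 1.85, 2.22 and 1.28 CPM in FR1, 1.45, 1.22, 2.97, 0.559 and 0.817 CPM in FR2, 1.94, 1.80, 1.12, 0.516 and 4.27 CPM in FR3, and 21.7, 32.2, 295, 1060 and 1.81 CPM in CONTROL. All 15 inseminated libraries stayed under 5 CPM, whereas the controls ran over a 587-fold range, and CONTROL_5 lay among the inseminated libraries. The fitted log2 fold change was -7.27 ± 0.79. This value compares group means, which CONTROL_4 and CONTROL_3 set: it was -5.57 without CONTROL_4, -5.13 ± 1.37 by limma-voom, which averages log values, and -2.65 ± 0.63 without CONTROL_2, CONTROL_3 and CONTROL_4.

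Some other markers stood high in the same 2 libraries, though not whole lists. The epithelium marker ELF3 had at most 25.7 CPM in inseminated libraries, against 218 CPM in CONTROL_4 and 177 CPM in CONTROL_3. MUC1 had at most 21.1 CPM in inseminated libraries, against 89.0 CPM in CONTROL_4 and 70.8 CPM in CONTROL_3. EPCAM, KRT18, CLDN4 and CLDN7 were above every inseminated library in both controls too. The other epithelium markers were not. KRT19 in CONTROL_3 (70.6 CPM) and ESRP1 in CONTROL_4 (49.4 CPM) lay below every inseminated library, whose minima were 447 and 53.6 CPM. Nor was the height particular to these controls, since CONTROL_2 also lay above every inseminated library in ELF3 (88.9 CPM) and MUC1. The mean log2 CPM of the mesothelium markers was at most 1.87 in inseminated libraries, against 2.70 in CONTROL_4, 2.78 in CONTROL_3 and at most 1.87 in the remaining controls. It rests on the 2 members of that list that were tested. UPK3B was lower in inseminated uteri (-2.94 ± 0.93, adjusted p = 0.0472, edgeR) but near the floor, at 0.943 CPM in CONTROL_4 and 1.35 CPM in CONTROL_3. WT1, at 43.0 and 33.8 CPM there, lay within the inseminated range of 19.3 to 69.9 CPM. So did the summed CPM of the list, at 44.5 and 35.2, against 19.5 to 70.1 in inseminated libraries. The 4 basal epithelium markers with a row summed to 1.78 CPM in CONTROL_4 and 0.894 CPM in CONTROL_3, within the range of the inseminated libraries. Among them KRT5 was highest in these controls, at 1.61 CPM in CONTROL_4 and 0.390 CPM in CONTROL_3, whereas DSG3 was at 0.0210 CPM and 0, and neither of the 2 tested, DSG3 (1.97 ± 0.97) and KRT15 (0.58 ± 1.27), passed. The part of these markers in the COL17A1 result was not tested.

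Of the 2 laminin-332 chains of the set, LAMB3 was called lower and LAMA3 was not called. LAMB3, the beta chain, measured 6.04, 5.85, 5.18, 4.52 and 6.47 CPM in FR1, 5.01, 6.57, 7.49, 2.60 and 9.28 CPM in FR2, 2.10, 10.8, 5.26, 1.76 and 3.67 CPM in FR3, and 12.4, 11.5, 341, 332 and 5.49 CPM in CONTROL. Inseminated libraries lay close together and CONTROL_3 and CONTROL_4, the controls highest in COL17A1, were far above all others, while CONTROL_5 was again among the inseminated values. The fitted log2 fold change was -4.68 ± 0.63, which was -4.08 without CONTROL_4, -3.00 ± 0.87 by limma-voom and -0.68 ± 0.49, no longer called, without CONTROL_2, CONTROL_3 and CONTROL_4.

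LAMA3, the alpha chain, showed no such pattern. It measured 8.90, 154, 198, 6.02 and 281 CPM in FR1, 228, 142, 7.94, 130 and 113 CPM in FR2, 535, 650, 152, 5.84 and 93.7 CPM in FR3, and 254, 18.6, 30.2, 192 and 2.82 CPM in CONTROL. The inseminated libraries formed a low set of 4 and a high set of 11. CONTROL_1 and CONTROL_4 lay within the range of the high set, CONTROL_2 and CONTROL_3 between the sets, and CONTROL_5 below both. The fitted log2 difference was 0.74 ± 0.99. LAMA3 CPM over LAMB3 CPM had a median of 26.0 (1.06 to 244) in inseminated libraries and 0.577 (0.0889 to 20.4) in CONTROL libraries, with overlapping ranges.

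**Figure D2:**
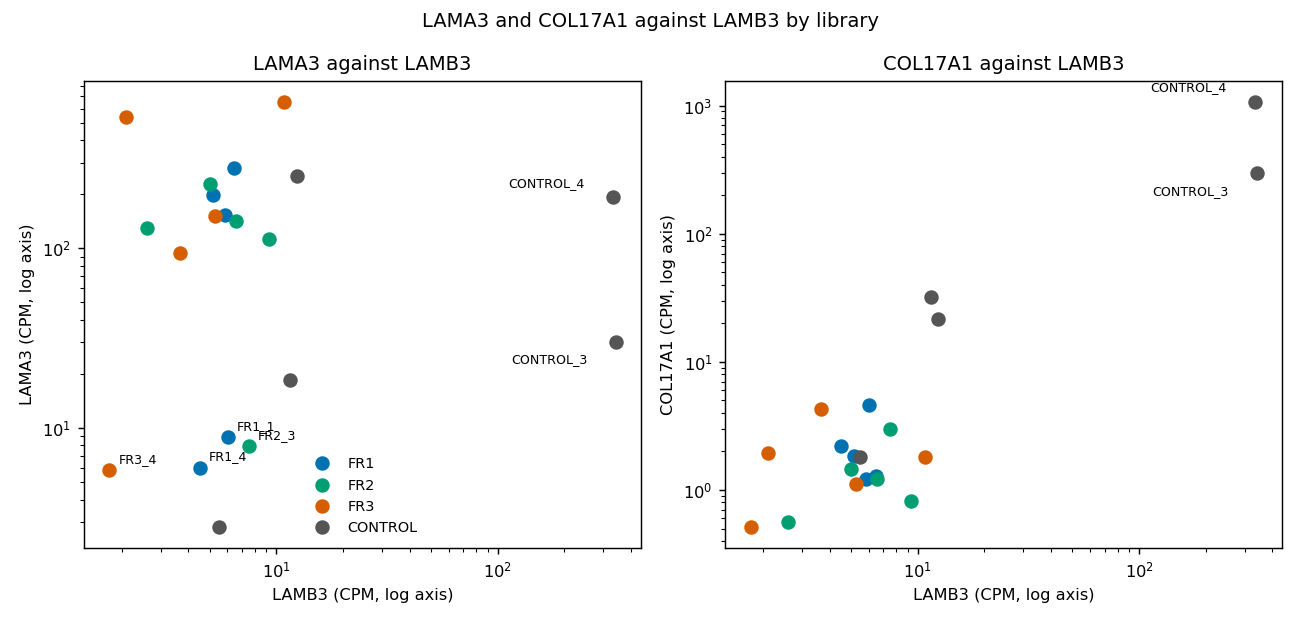
LAMA3 (left) and COL17A1 (right) against LAMB3 in each of the 20 libraries, CPM on log axes, coloured by group. CONTROL_3 and CONTROL_4 stand at the far right in LAMB3 (341 and 332 CPM) and at the top in COL17A1 (295 and 1060 CPM) but not in LAMA3, where FR1_1, FR1_4, FR2_3, FR3_4 and CONTROL_5 lie at the bottom.

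Integrin alpha 6 beta 4 is the laminin-332 receptor of the hemidesmosome. ITGB4, the chain specific to it, measured 51.1, 233, 462, 41.3 and 278 CPM in FR1, 286, 369, 43.3, 245 and 241 CPM in FR2, 744, 829, 354, 46.3 and 471 CPM in FR3, and 467, 481, 124, 154 and 236 CPM in CONTROL. ITGA6, which can also pair with beta 1, measured 104, 204, 230, 88.9 and 172 CPM in FR1, 187, 260, 117, 236 and 134 CPM in FR2, 649, 393, 188, 103 and 376 CPM in FR3, and 249, 501, 242, 201 and 196 CPM in CONTROL. FR1_1, FR1_4, FR2_3 and FR3_4 lay below every control in both genes, as did 4 further inseminated libraries in ITGA6, and 1 or more FR3 libraries lay above every control. The fitted log2 differences between inseminated and CONTROL uteri were -0.01 ± 0.57 for ITGB4 and -0.36 ± 0.33 for ITGA6.

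DST, the plakin that links the integrin to keratin filaments in its epithelial isoform and to other cytoskeletal fibres in muscle and nerve, varied least of the 9 among inseminated libraries. It measured 172, 157, 117, 220 and 106 CPM in FR1, 185, 143, 132, 126 and 133 CPM in FR2, 73.0, 59.3, 71.5, 132 and 102 CPM in FR3, and 66.1, 126, 242, 132 and 82.8 CPM in CONTROL. Its highest level was 3.71 times the lowest among inseminated and 3.66 times among CONTROL libraries, and the fitted log2 difference was -0.05 ± 0.24. The table gives 1 value per gene, so the isoforms of DST were not separated.

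Each semen group was also set against the same 5 controls. Because the 3 contrasts share them, their likeness is not independent evidence. FREM1 had fitted log2 fold changes of 3.17 ± 0.53 in FR1, 4.04 ± 0.55 in FR2 and 3.42 ± 0.53 in FR3. COL17A1 had -6.98 ± 1.26 in FR1, -7.64 ± 1.30 in FR2 and -7.21 ± 1.27 in FR3. LAMB3 had -4.64 ± 0.97 in FR1, -4.50 ± 0.96 in FR2 and -4.90 ± 0.98 in FR3. These 3 genes were called in each contrast, beside 2.60% of all genes in FR1, 5.55% in FR2 and 4.27% in FR3. Nothing is read from this, because the contrasts are parts of the one that chose the genes. When each group was fitted with the controls alone, none of the 9 was called, and limma-voom called FREM1 alone among them. LAMB3 in FR1 lost its call without FR1_1, FR1_2, FR1_4 or FR1_5, and in FR3 without FR3_1.

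**Figure D3:**
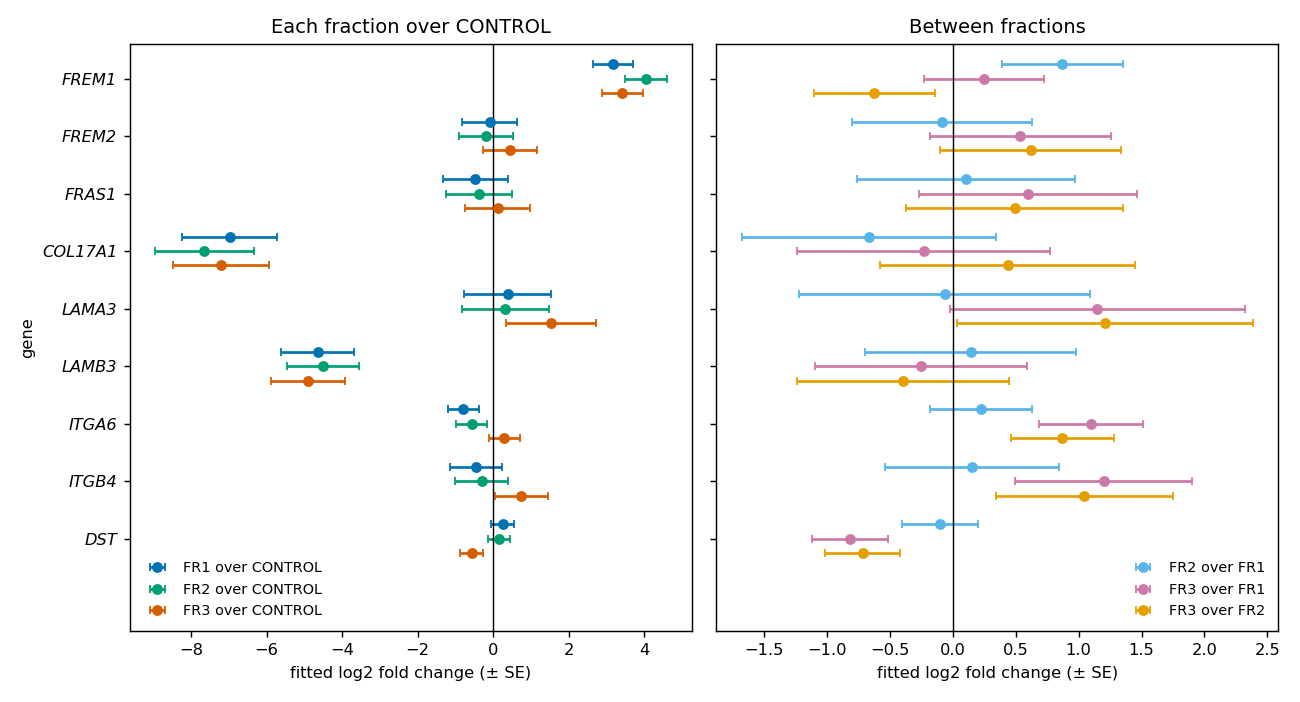
Fitted log2 fold change ± SE of each gene for each semen group over CONTROL (left) and between semen groups (right), from 1 model of 20 libraries. On the left FREM1 lies to the right of 0 and COL17A1 and LAMB3 to the left for all 3 groups; on the right no gene passed the adjusted threshold.

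The contrasts between semen groups were not the ones the genes were chosen on, and none of the 9 was called in any of the 3 pairs. Over all genes the same test called 0 in FR2 against FR1 (130 or 0.733% at an unadjusted p below 0.05), 0 in FR3 against FR1 (1471 or 8.29%) and 1, or 0.00564%, in FR3 against FR2 (1307 or 7.37%), while DESeq2 called 0, 12 and 21 genes, none of them a member. ITGA6 averaged 342 ± 211 CPM in FR3 and 160 ± 61.5 CPM in FR1 (SD, n = 5 each), a log2 difference of 1.10 ± 0.41 with an edgeR adjusted p of 0.586. DST averaged 87.5 ± 29.4 CPM in FR3 and 154 ± 45.8 CPM in FR1, a log2 difference of -0.82 ± 0.30 with an edgeR adjusted p of 0.586. These 2 genes had the smallest unadjusted p of the 9 between FR3 and FR1, at 0.0153 and 0.0136 by edgeR, and 8.29% of all genes were below 0.05 there.

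FR3 against FR2 gave nearly the same picture, at 0.87 ± 0.41 for ITGA6 and -0.72 ± 0.30 for DST (edgeR adjusted p of 0.669 and 0.666). ITGB4 differed by 1.20 (95% interval -0.29 to 2.69) between FR3 and FR1, and LAMA3 by 1.15 (-1.34 to 3.63). For COL17A1 the interval between FR3 and FR1 ran between -2.36 and 1.90, and for FREM1 between -0.77 and 1.26. A 2-fold difference in 1 or the other direction lay inside the interval of each of the 9 genes in FR3 against FR1. FREM1 was highest in FR2, at 9.18 ± 2.09 CPM, against 5.02 ± 1.80 CPM in FR1 (SD, n = 5 each), a log2 difference of 0.87 ± 0.48 with an edgeR adjusted p of 1.

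The widest variation lay within groups. FR1_1, FR1_4, FR2_3 and FR3_4 were low together: in LAMA3 they had 5.84 to 8.90 CPM, where the other 11 inseminated libraries had 93.7 to 650 CPM. In ITGB4 they had 41.3 to 51.1 CPM and the other 11 had 233 to 829 CPM. FRAS1 (11.5 to 24.6 CPM in the 4 and 49.8 to 262 CPM in the 11) and ITGA6 (88.9 to 117 and 134 to 649 CPM) were separated too. That made 4 of 9 genes below, where 7.48% of all genes tested were. Nothing is read from this share, because these libraries were singled out from earlier results of the same data.

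FREM2 nearly followed, at 18.0 to 29.1 CPM in the 4 and 22.1 to 173 CPM in the 11 libraries. FREM1, COL17A1, LAMB3 and DST did not separate them. The same 4 libraries had the lowest epithelium marker means, 5.83 to 6.44 against 6.60 to 7.60 in the 11, and NPNT was above in all of them, at 338 to 405 CPM against 154 to 327 CPM. The marker means are a description too, since the 4 libraries were singled out from these data. Periplakin (PPL), a linker of the same protein family as DST, was below, at 21.6 to 38.3 CPM against 63.8 to 245 CPM. The part of the epithelium content in these levels was not tested, and without the 4 libraries FREM1, COL17A1 and LAMB3 stood at 3.69 ± 0.52, -7.61 ± 0.99 and -4.66 ± 0.78 against CONTROL.

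**Figure D4:**
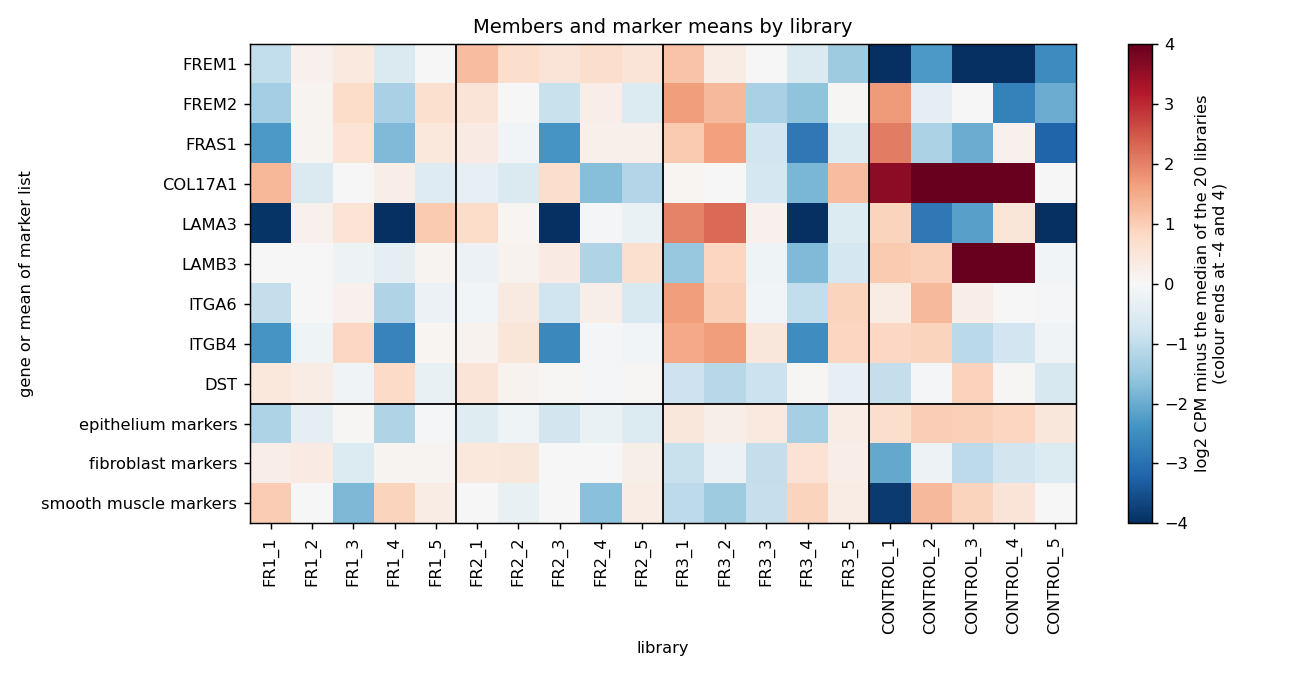
log2 CPM of the 9 genes and the mean log2 CPM of 3 marker lists, each minus its median over the 20 libraries (colour; ends at -4 and 4). FR1_1, FR1_4, FR2_3 and FR3_4 are blue in FRAS1, LAMA3, ITGA6, ITGB4 and the epithelium markers, and COL17A1 and LAMB3 are deep red in CONTROL_3 and CONTROL_4.

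Correlations were taken over the inseminated libraries alone, so that the contrast with CONTROL did not enter. Because 4 libraries stood apart, they were read within the other 11. There ITGB4 rose with the epithelium marker mean (Pearson r = 0.782, adjusted p = 0.0234; Spearman rho = 0.773, adjusted p = 0.0352; permutation tests, 9 relations). DST went the other way (r = -0.861, adjusted p = 0.0072; rho = -0.855, adjusted p = 0.0135; permutation tests). ITGA6 passed by Pearson's r only (0.704, adjusted p = 0.0404; rho = 0.636, adjusted p = 0.119; permutation tests).

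The 2 libraries farthest from the median marker mean were then left out as well. Over the remaining 9, DST still passed (r = -0.883, adjusted p = 0.0125, exact permutation test), whereas ITGB4 (r = 0.677, unadjusted p = 0.0411 by exact permutation test) and ITGA6 (r = 0.460) no longer passed the adjusted threshold. FRAS1, FREM2 and LAMA3 passed over all 15 libraries and had r of 0.077, 0.231 and 0.409 within the 11, so their relation rests on the 4 low libraries. FREM1, COL17A1 and LAMB3, the 3 genes that differed from CONTROL, passed in neither set, and within the 11 their r with the marker mean was -0.365, 0.581 and -0.311.

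These correlations pool the 3 semen groups. With values centred on each group over all 15 libraries, FREM1 passed by rank with the marker mean (rho = 0.625, adjusted p = 0.0191; r = 0.496, adjusted p = 0.0822; permutation tests). It then also passed with FRAS1 (r = 0.655, adjusted p = 0.0169), FREM2 (r = 0.676, adjusted p = 0.0141) and LAMA3 (r = 0.657, adjusted p = 0.0169; permutation tests). With values centred and the 4 low libraries left out, none of the 9 relations with the markers and none of the 36 pairs of genes passed (exact permutation within groups). There DST had an r of -0.376, ITGB4 of 0.398 and ITGA6 of 0.370 with the marker mean, so the calls of these 3 genes within the 11 were lost once differences between semen groups were taken out.

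Among the 36 pairs of the 9 genes, 4 passed within the 11 libraries. FRAS1 went with FREM2 (r = 0.847, adjusted p = 0.0221; rho = 0.891, adjusted p = 0.0205; permutation tests) and with LAMA3 (r = 0.863, adjusted p = 0.0205; rho = 0.782, adjusted p = 0.0745). FREM2 went with LAMA3 (r = 0.781, adjusted p = 0.0396; rho = 0.800, adjusted p = 0.0745), and ITGA6 with ITGB4 (r = 0.847, adjusted p = 0.0221; rho = 0.764, adjusted p = 0.0757). Over the 9 libraries left without the farthest 2, FREM2 with LAMA3 (r = 0.882) and FRAS1 with LAMA3 (r = 0.880) still passed (adjusted p = 0.0366 each, exact permutation test), and FRAS1 with FREM2 (r = 0.760) and ITGA6 with ITGB4 (r = 0.780) did not. LAMA3 and LAMB3, chains of 1 trimer, had an r of 0.052 (adjusted p = 0.952, permutation test). With values centred on each group within the 11, r was 0.847 for FRAS1 with FREM2, 0.903 for FRAS1 with LAMA3, 0.788 for FREM2 with LAMA3 and 0.697 for ITGA6 with ITGB4, and none passed.

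The genes most like FREM1 over the 15 inseminated libraries, among 14533 genes of at least 1 CPM, were AGPAT5 (r = 0.895), PSIP1 (0.837), USP53 (0.833), FAM200B (0.829) and CDC14B (0.821). PSIP1 lies on the chromosome of FREM1 in the RefSeq annotation, with 1 protein-coding gene between them. Those most like COL17A1 were C10H9orf3 (r = 0.767), ZNF263 (0.750), LOC110261965 (0.728), LOC100153150 (0.679) and LOC100158121 (0.671). These are the highest of 14533 values each, chosen for their height.

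The other hemidesmosome genes fell or did not pass the test in inseminated against CONTROL uteri. Of 5 listed partners, 2 fell and none rose, beside 8.20% and 2.87% of all genes tested. Their median log2 fold change was 0.01 where the median of all genes was -0.05. Those that fell were ITGA3, the alpha chain of another laminin-332 receptor (-2.05 ± 0.33, adjusted p = 0.000663, edgeR), and CD151, a tetraspanin that binds both receptors (-0.65 ± 0.21, adjusted p = 0.0494, edgeR). ITGA3 was at 343 CPM in CONTROL_3 and 242 CPM in CONTROL_4, and its difference was -0.27, not called, without CONTROL_2, CONTROL_3 and CONTROL_4. The CD151 call held in 4 of the 20 fits that left out 1 library. Plectin (PLEC, 0.05 ± 0.17), ERBIN (0.01 ± 0.14), which binds the integrin tail, and COL7A1 (0.77 ± 0.49), the anchoring fibril collagen, did not pass.

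Of 6 other plakins and desmosome genes, PKP3, a desmosomal plakophilin, fell (-1.12 ± 0.21, adjusted p = 0.00234, edgeR) and 5 did not pass. Over all genes tested, 8.20% fell and 2.87% rose. With the epithelium marker mean in the model, PKP3 stood at -0.46 and ITGA3 at -1.16, neither called. Nothing is read from these lost calls, because that mean does not overlap between inseminated and CONTROL libraries. None of 6 shedding and processing enzymes (ADAM9, ADAM10, ADAM17, BMP1, FURIN, MMP14), some of which are known to cut collagen XVII or laminin-332, passed the edgeR test. Over all genes tested, 11.1% were called. Among the 6 enzymes, ADAM9 and ADAM17 had log2 differences of -1.12 ± 0.43 and -0.33 ± 0.15, and the median of the list was -0.31.

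The wider basement membrane did not move one way. Of 31 genes, 5 rose, 4 fell and 22 did not pass, where 2.87% of all genes tested rose and 8.20% fell. The median log2 fold change of the 31 was 0.01. Those that rose were the laminin chain LAMA2 (1.02 ± 0.30, adjusted p = 0.0326, edgeR), the linker nidogen NID1 (1.03 ± 0.32), COL15A1 (0.93 ± 0.27), the collagen-binding SPARC (1.03 ± 0.30) and EGFLAM, a dystroglycan ligand (1.16 ± 0.29). The lower genes were LAMA5, the main epithelial laminin alpha chain elsewhere (-1.01 ± 0.28, adjusted p = 0.0241, edgeR), TINAGL1 (-2.90 ± 0.47), SMOC1 (-6.52 ± 0.89) and the netrin NTN4 (-1.03 ± 0.31).

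Several of these rest on few controls. SMOC1 had 0.365 to 12.8 CPM in inseminated libraries, against 433 CPM in CONTROL_2, 381 CPM in CONTROL_3 and between 1.72 and 5.01 CPM for the remaining controls. Its log2 difference was -5.76 without CONTROL_2. TINAGL1 was -1.01 without CONTROL_3. LAMA5 lost its call without CONTROL_3 or CONTROL_4 and EGFLAM without CONTROL_3. Over the 20 fits that left out 1 library, the call held in 17 for LAMA2 and COL15A1, in 16 for SPARC, in 8 for NTN4 and in 5 for NID1. Beside the 5 genes that rose, 2 of 8 fibroblast markers rose and 6 did not pass. The median log2 fold change of the 8 was 0.98. Of the 6, THY1 (-1.37 ± 0.58) and VIM (-0.25 ± 0.26) were lower. COL1A1 (mean 3960 CPM in inseminated and 1750 CPM in CONTROL libraries), COL3A1 (3720 and 1650), DCN (511 and 291) and PDGFRB (115 and 72.6) were higher. The part of fibroblast content was not tested.

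Of 9 receptors, 2 fell and none rose, beside 8.20% and 2.87% of all genes tested. Dystroglycan (DAG1), a receptor for laminins, stood at -1.44 ± 0.37 (adjusted p = 0.016, edgeR), and at -0.25, not called, without CONTROL_3. Syndecan-4 (SDC4), a heparan sulfate co-receptor, stood at -2.67 ± 0.43 (adjusted p = 0.00065, edgeR), and at -1.66 without CONTROL_3. The collagen receptor chain ITGA2 (-1.46 ± 0.65), SDC1 (-1.02 ± 0.50) and DDR1 (-0.51 ± 0.18) did not pass.

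**Figure D5:**
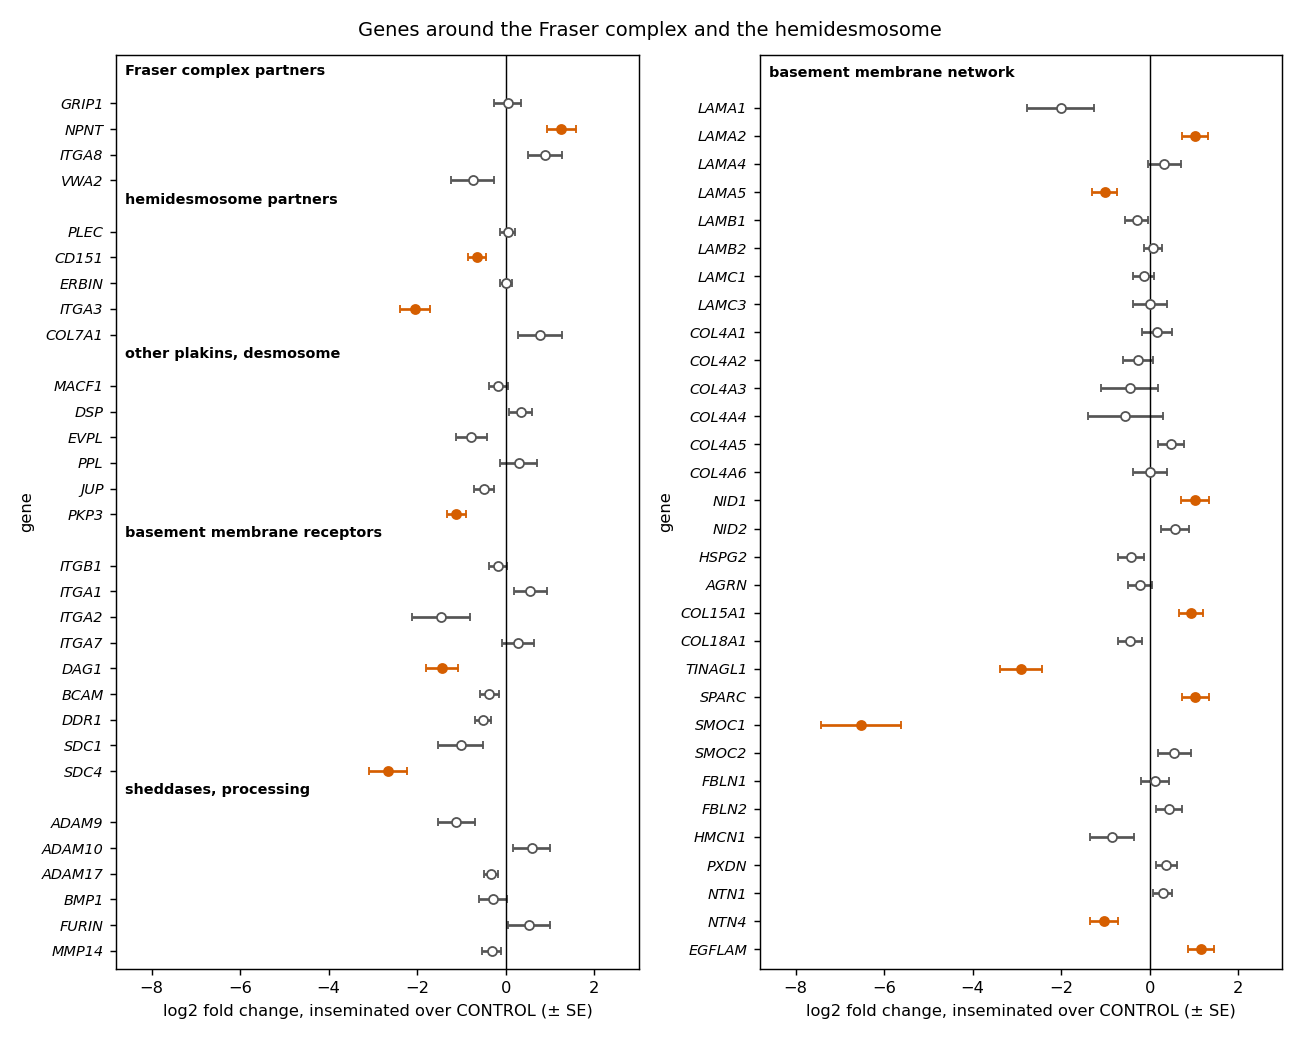
Fitted log2 fold change ± SE of listed genes in inseminated over CONTROL uteri, by gene group; filled orange points were called by edgeR at an adjusted p below 0.05, open points were not. In the left panel NPNT lies to the right and CD151, ITGA3, PKP3, DAG1 and SDC4 to the left; the basement membrane genes on the right split 5 to 4.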

How the data were processed

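Messenger RNA of whole uterus was sequenced from 20 sows, 1 library each, in 4 groups of 5, all with 1 batch label. The authors deposited gene-level estimated counts (also called expected counts) with no scaling for depth, and 87.2% of the values are whole. The tools were Salmon 1.10.1, STAR 2.7.9a and CASAVA, per the submitters' processing notes, which name no genome build, annotation or strand setting. Salmon shares reads between similar transcripts.

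Counts were rounded to whole numbers. The table has 30369 rows, and 24 without a gene symbol, holding 0.0036% to 0.0133% of a library's counts, were left out. edgeR 4.0.16 in R 4.3.3 was run with TMM factors, filterByExpr and 2-sided quasi-likelihood tests on all 20 libraries in 1 fit (16 residual degrees of freedom). The p-values were adjusted by Benjamini-Hochberg over 17745 genes, and a call is an adjusted p below 0.05. The SE is the log2 fold change over the square root of F. CPM are TMM-scaled, and correlations used log2 CPM with a prior count of 2 and 100000 permutations (Python 3.11.15, scipy 1.17.1), or exact permutation over 9 libraries or within semen groups. The fits were tested on simulated data.

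The 9 genes, the lists of other genes and the alternatives were chosen with earlier results of these data known. Genes named are the 9, listed genes called or with the smallest p in a list, and for FREM1 and COL17A1 the 5 most correlated genes. Columns give a group and a number from 1 to 5 while labels number sows 1 to 20, so a column's group is known and its sow is not, and numbers pair nothing across groups. A further hemidesmosome gene is not reported here and was left out of its list's counts. RefSeq gene records served only for names and neighbours. Alternatives were relative log expression factors, DESeq2 1.42.0, limma 3.58.1 voom, no filter, the epithelium marker mean as a covariate, the compared groups alone and leaving out libraries.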

Additional observations from a re-analysis of the deposited data

Results flagged for a closer look

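Over the 36 sets of 1 gene in 1 group of 5 libraries, 6 had a library whose distance to its nearest neighbour took up more of the group's range than Dixon's 95% critical value of 0.71 allows. Chance alone gives about 1 in 20 for normally distributed values. The rule was applied to CPM without a log scale, and all 6 were the highest of their group, so no excess is read from the count. In CONTROL, COL17A1 was at 1060 CPM in CONTROL_4, FRAS1 at 349 CPM and FREM2 at 178 CPM in CONTROL_1, and ITGA6 at 501 CPM in CONTROL_2. In FR2, library FR2_1 stood above the others of its group in both FREM1, at 12.8 CPM, and DST, at 185 CPM. The 4 control values belong to 3 different libraries, CONTROL_1 carrying 2 of them. CONTROL_1 also had the lowest fibroblast and smooth muscle marker means of the 20 libraries, 6.41 and 6.77 log2 CPM, and their part in its FRAS1 and FREM2 levels was not tested.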

How the results depend on the processing

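No paired analysis was possible because the column numbers are not the labels' sow numbers and the labels give no number shared between groups. Against CONTROL the 3 calls FREM1, COL17A1 and LAMB3 kept their direction under every alternative run, which describes genes chosen from this contrast and does not support the choice; over all inseminated sows 3 members were called in each fit leaving out 1 library. Genes called in that comparison numbered 988 to 2730 over those fits, 1308 by limma-voom and 523 without CONTROL_2, CONTROL_3 and CONTROL_4, against 1965. The counts against CONTROL were less stable in FR1 (461, range 99 to 1372, 2 to 3 members), FR2 (985, range 309 to 1881, 3 members) and FR3 (758, range 58 to 1869, 2 to 3 members). DESeq2 called 1450 genes in FR1, 2125 in FR2 and 1876 in FR3, 12 in FR3 against FR1, 21 in FR3 against FR2 and 26 for any difference among the 3. limma-voom called 185 in FR1 and 295 in FR3, with 1 member in each of the 3 groups. With the compared groups alone, 0, 1 and 0 genes and 0 members were called in FR1, FR2 and FR3. Without FR1_1, FR1_4, FR2_3 and FR3_4, FR1 had 22 genes and 1 member, FR2 474 genes, and FR3 against FR2 0. Without CONTROL_2, CONTROL_3 and CONTROL_4, FR1 had 208 genes and 1 member, FR2 420 and 1, FR3 7 and 0, LAMA5 stood at 0.0671 and DAG1 at 0.29. FR3 against FR2, and any difference, gave 0 to 1 genes when 1 library was left out.

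With the epithelium marker mean as a covariate, LAMA3 and ITGB4 joined the 3 called members (5), FR1 had 1 member, FR3 6 members and 1981 genes, and FR3 against FR2 0 genes. That covariate itself does not overlap between inseminated and CONTROL libraries. Uncalled differences between semen groups changed sign: under it LAMA3 was 0.55 in FR2 against FR1, -0.62 in FR3 against FR1 and -1.17 in FR3 against FR2, FREM1 was -0.0605 in FR3 against FR1 and ITGB4 -0.27 in FR3 against FR2; LAMA3 was 0.62 by limma-voom in FR2 against FR1, where ITGB4 was -0.18 and DST 0.21 without the 4 low libraries. Leaving out 1 library, FR2 against FR1 ran from -0.21 to 0.0595 for DST, -0.11 to 0.65 for ITGB4 and -0.40 to 0.43 for LAMA3, and FR3 against FR1 from -0.19 to 0.47 for FREM1. Of 9 correlations with the epithelium markers 6 passed over 15 libraries, 3 without the 4 low ones and 1 without 2 more, a choice made after seeing the data; of 36 pairs 13, 4 and 2 did. Centred on each semen group, 6 correlations and 17 pairs passed over 15 libraries, and without the farthest 2 alone 4 and 11 did; centred and without the 4, also chosen after seeing the data, 0 and 0 did. Signs changed for FREM1 (-0.365 without the 4, -0.022 without the farthest 2, -0.682 without all 6), LAMB3 (-0.311 without the 4, -0.228 without the farthest 2), and without all 6 for FRAS1 (-0.129), FREM2 (-0.249), and LAMA3 with ITGA6 (-0.414), ITGB4 (-0.145) and DST (0.159); centred and without the 4, for FRAS1 (-0.059), COL17A1 (-0.001), LAMB3 (-0.418), and ITGA6 with DST (0.033). The cause of these changes was not tested. COL17A1 in inseminated sows had as few as 23 counts and FREM1 in controls as few as 8, which limits the precision of both folds.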

Other observations

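CONTROL_5 was the control that lay within the inseminated range in COL17A1 (1.81 CPM) and LAMB3 (5.49 CPM). It was below every inseminated library in FREM1 (0.949 CPM), FREM2 (13.7 CPM), FRAS1 (9.12 CPM) and LAMA3 (2.82 CPM), and its epithelium marker mean of 7.62 log2 CPM was above all of them.

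The ratio of ITGA6 to ITGB4 CPM, compared between libraries only, was 2.04 in FR1_1, 2.15 in FR1_4, 2.70 in FR2_3 and 2.23 in FR3_4, where the other 11 inseminated libraries ran from 0.475 to 0.964 and CONTROL libraries from 0.533 to 1.96. The ratio therefore did not overlap between those 4 and the other 11. No test was made, because the libraries were singled out from earlier results of the same data.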
